A study of Mus musculus with 2 samples.

Results

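The 10 genes described here are the 4 Janus kinases (Jak1, Jak2, Jak3 and Tyk2), the transcription factors Stat5a and Stat5b, and the feedback inhibitors Socs1, Socs2, Socs3 and Cish. They were taken by gene symbol from the 17002 genes of the authors' deposited table, and all 10 were found. The table compares 2 cultures of Th17 cells, the CD4+ T helper subset named for interleukin-17, in a study of how the long non-coding RNA lncRNA-GM affects Th17 differentiation through Foxo1. Naive CD4+ T cells came from the spleens of C57BL/6 mice that were either wild type or lncRNA-GM-/-, and both cultures were kept in Th17-polarising conditions for 3 days before total RNA was taken. Each genotype had 1 library. The sources used here do not give the age of the mice, how many mice gave each culture, the allele or the polarising cytokines.

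With 1 library per genotype there was no replicate spread and no test, and every difference below is between these 2 libraries, with no replicate check. Values are FPKM, which correct fragment counts for transcript length and library size. This unit was inferred from the deposited values. Differences are log2 ratios of knockout to wild type after adding 1 FPKM to each, and a gene is called higher or lower past 1.5-fold. The depth behind these values was reconstructed as about 19.4 M (wild type) and 19.1 M (knockout) fragments. Intervals are 95% exact (Clopper-Pearson) intervals on the ratio of reconstructed reads without the added 1, and they cover counting error only. The row of lncRNA-GM was not identified, so the genotype labels were not checked against the targeted gene. All 13 markers of CD4+ T cells and Th17 cells were measured in both libraries, among them Cd4 at 174 FPKM in wild-type and 213 FPKM in knockout cells. Past 1.5-fold, 4 of the 13 were lower, Il17a, Il17f and Il23r among them, and the list summed to 4355 and 3790.2 FPKM.

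Janus kinases are tyrosine kinases that sit in pairs on the inner ends of cytokine receptors and, once a cytokine binds, phosphorylate the STAT proteins that carry the signal to the nucleus. Jak3 works only with the common gamma chain, the receptor subunit shared by interleukin-2 and its relatives, and there it pairs with Jak1 and activates chiefly STAT5. In T helper cells STAT5 restrains Th17 differentiation and competes with STAT3 for sites at the Il17 genes, while Socs1, Socs2, Socs3 and Cish are induced by STATs and return to block the receptors and kinases.

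The 4 feedback inhibitor genes and Jak3 had higher levels in the knockout library, whereas Jak1, Jak2, Tyk2, Stat5a and Stat5b were at almost the same level in both. Past 1.5-fold, 2 of the 10 genes were higher (Socs2 and Cish) and 0 were lower. Among the 10998 genes with at least 1 FPKM in 1 library, 2.71% were higher and 5.19% lower, and among the 6705 genes with at least 10 FPKM in 1 library, where all 10 genes lie, 1.89% were higher and 3.59% lower. Socs1 lay just inside the 1.5-fold limit at a log2 ratio of 0.58 and was past it under 6 of the 7 other ways of computing the ratio, which then gave 3 higher genes. The median log2 ratio of the 10 genes was 0.16, beside -0.03 for the 10998 genes, and 6 of the 10 were above 0, or 9 of the 10 when both libraries were scaled to the same median. The next member below Socs1 was Jak3, at 0.43.

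**Figure D1:**
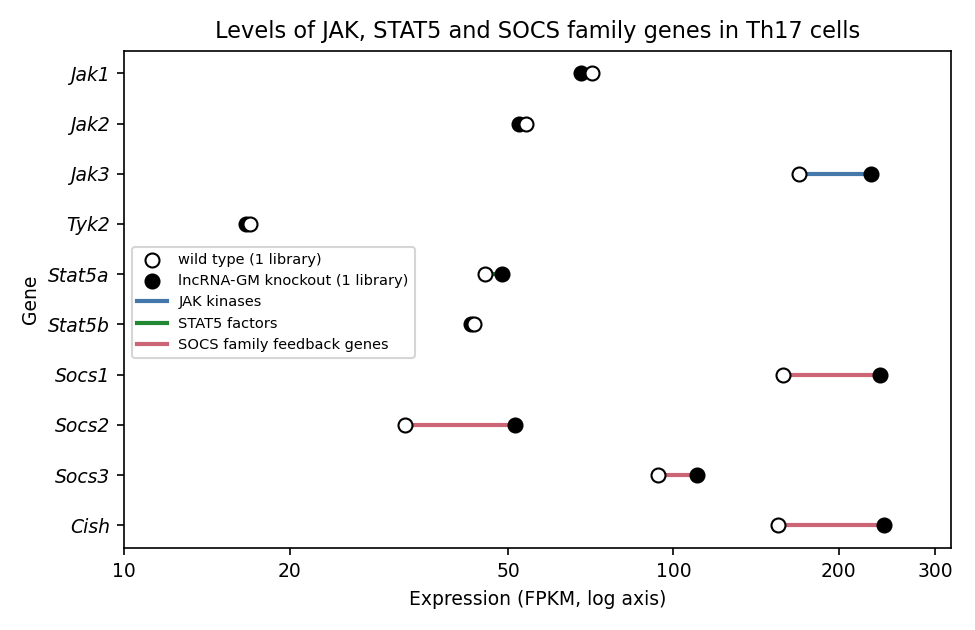
Level of each of the 10 genes in FPKM on a log axis, with an open point for the wild-type library, a filled point for the knockout library and a line joining them, coloured by gene group. The points of Jak3, Socs1, Socs2, Socs3 and Cish are apart, with the knockout higher, and those of the other 5 genes touch or lie close together.

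Among the kinases, Jak3 (gene ID 16453, chr8:71676383-71690577, GRCm38.p6), the partner of the common gamma chain, was listed at 169 FPKM in wild-type and 229 FPKM in knockout cells. Its level was higher in the knockout by 35.2% of the wild-type level. As deposited it was the only kinase above 0, and with the libraries scaled to the same median Jak2 (0.01) and Tyk2 (0.03) lay just above 0 too. Its log2 ratio was 0.43, with an interval of 0.40 to 0.47 over 12734 and 16937 reconstructed reads, and 5.11% of the 10998 genes had a higher ratio. Jak3 shares 404 exon bases on the same strand with its neighbour Insl3, a hormone gene, so reads in that stretch could be assigned to either. Insl3 was listed at 41.7 FPKM in wild-type and 56.2 FPKM in knockout cells, a log2 ratio of 0.42. These shared bases are 10.1% of the Jak3 transcript.

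Jak1 (gene ID 16451, chr4:101151974-101265282), the kinase used by the widest range of these receptors, was listed at 71.0 FPKM in wild-type and 67.8 FPKM in knockout cells. Its log2 ratio of -0.07 had an interval of -0.12 to -0.02, so the difference was larger than counting error and small in size. Jak2 (gene ID 16452, chr19:29251803-29313095), the kinase of the interferon gamma, interleukin-12 and interleukin-23 receptors, stood at 54.0 and 52.4 FPKM, a log2 ratio of -0.04 with an interval of -0.10 to 0.01. Tyk2 (gene ID 54721, chr9:21104068-21131393), which pairs with Jak1 or Jak2 on type I interferon, interleukin-12 and interleukin-23 receptors, was the least abundant of the 10 genes. It was listed at 16.95 FPKM in wild-type and 16.7 FPKM in knockout cells, a log2 ratio of -0.02 with an interval of -0.13 to 0.08. For Jak2 and Tyk2 no difference was detectable at this depth. When both libraries were scaled to the same median, which moved the median of all genes by 0.05, Jak2 stood at 0.01, Tyk2 at 0.03 and Jak1 at -0.01. Tyk2 overlaps 1700084C06Rik over 554 exon bases on the opposite strand, and Jak1 overlaps Raver2 over 4. Since the strandedness of the libraries was not given in the sources used here, reads from such overlaps cannot be told apart.

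The make-up of the kinase pool differed accordingly. The summed level of the 4 kinases was 311 FPKM in wild-type and 366 FPKM in knockout cells, 1.18-fold higher. Jak3 made up 54.4% of the summed FPKM in the wild type and 62.6% in the knockout. Jak1 made up 22.8% and 18.5%, Jak2 17.3% and 14.3%, and Tyk2 5.44% and 4.56%. Per FPKM of Jak1, its partner on the common gamma chain receptors, there were 2.39 FPKM of Jak3 in the wild type and 3.38 in the knockout.

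Stat5a and Stat5b are neighbours on chromosome 11 and encode closely related proteins that bind the same DNA. Over part of their coding sequence they cannot be told apart by short reads. A run of 324 identical bases, coding bases 571 to 894 of both genes, is the longest that their coding sequences share (GENCODE transcripts on GRCm38.p6, Stat5a on the plus and Stat5b on the minus strand), and its first 150 bases, 571 to 720, are shown in lower case with no part marked.
Stat5a: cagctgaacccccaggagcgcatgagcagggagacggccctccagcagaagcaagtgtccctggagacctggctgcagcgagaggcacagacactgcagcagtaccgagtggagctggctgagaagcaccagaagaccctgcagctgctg
Stat5b: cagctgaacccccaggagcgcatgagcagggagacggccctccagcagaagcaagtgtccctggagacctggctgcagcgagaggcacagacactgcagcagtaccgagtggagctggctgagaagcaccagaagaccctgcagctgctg

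Over all windows of 50 bases in the Stat5a coding sequence, 26.1% were found letter for letter in Stat5b, as were 11.6% of windows of 100 bases and 7.84% of windows of 150 bases. A read from such a stretch fits both genes, and its assignment between them is an estimate. The transcripts aligned at 90.9% identity over 2332 bases, 60.0% of the Stat5a transcript.

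Stat5a (gene ID 20850, chr11:100859351-100885169) was listed at 45.5 FPKM in wild-type and 48.8 FPKM in knockout cells. Its log2 ratio of 0.10, with an interval of 0.04 to 0.17, is a difference of 1.07-fold. Stat5b (gene ID 20851, chr11:100780731-100859004) was listed at 43.4 and 42.8 FPKM, a log2 ratio of -0.02 with an interval of -0.08 to 0.04, and stood at 0.03 when the libraries were scaled to the same median. The pair was thus at nearly equal levels in each library, with Stat5a making up 51.2% of the summed FPKM in the wild type and 53.3% in the knockout. Their sum, which depends little on how shared reads were divided between them, was 88.9 FPKM in wild-type and 91.6 FPKM in knockout cells, 1.03-fold higher. Stat5a also overlaps Stat3 over 72 exon bases on the opposite strand, and Stat3 was listed at 118 FPKM in wild-type and 106 FPKM in knockout cells.

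**Figure D2:**
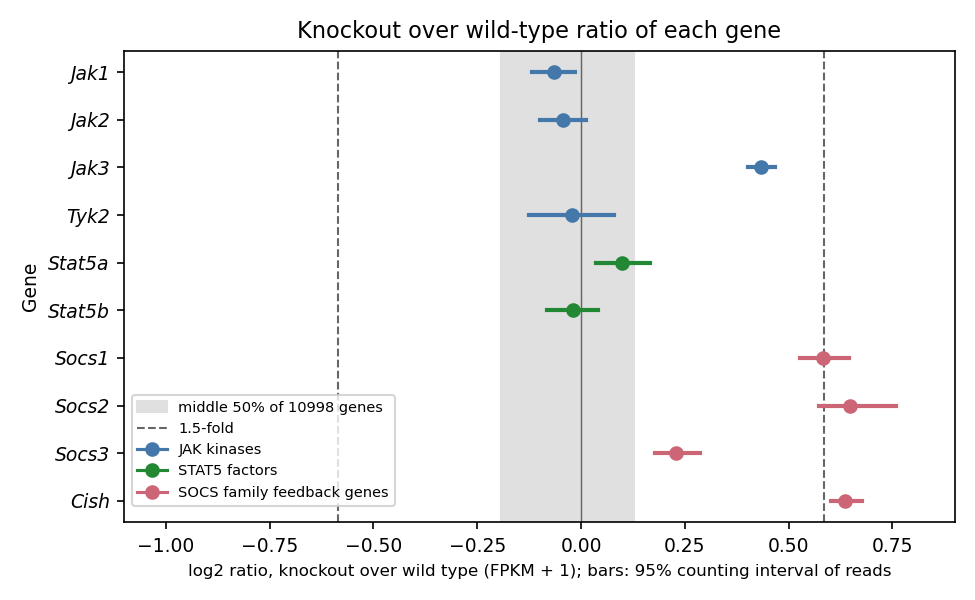
Log2 ratio of knockout to wild type for the 10 genes, on FPKM + 1, with bars for the 95% counting interval of the reconstructed reads a grey band for the middle 50% of the 10998 genes, and lines at 0 and at 1.5-fold. Socs2 at 0.65, Cish at 0.64 and Socs1 at 0.58 lie at or near the 1.5-fold line, Jak3 at 0.43 and Socs3 at 0.23 lie between it and 0, and the other 5 lie within 0.10 of 0.

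The feedback inhibitors were the group with the largest difference. Cish (gene ID 12700, chr9:107296659-107302784), a classic STAT5 target that blocks STAT5 docking on the interleukin-2 receptor, was listed at 155 FPKM in wild-type and 241 FPKM in knockout cells. That is 55.7% above its wild-type level, a log2 ratio of 0.64 with an interval of 0.60 to 0.68, over 9197 and 14092 reconstructed reads. Socs2 (gene ID 216233, chr10:95383903-95417321), best known as a brake on growth hormone receptor signalling and itself induced through STAT5, was listed at 32.4 FPKM in wild-type and 51.4 FPKM in knockout cells. It was 58.5% above its wild-type level, with a log2 ratio of 0.65 and an interval of 0.57 to 0.76. Its interval was the widest of the 4 inhibitors, with 1538 and 2399 reads, and it includes the 1.5-fold limit. Cish overlaps Gm17040 over 261 and Gm17041 over 479 exon bases on the opposite strand. Parts of the Socs2 transcript have copies in Gm9847 (99.5% identity over 599 bases) and Gm8000 (93.8% over 595 bases). No level was found under either name among the genes that the authors listed.

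Socs1 (gene ID 12703, chr16:10783808-10785536), which binds and inhibits Jak1, Jak2 and Tyk2 directly and is induced by interferons as well as by interleukin-2, was listed at 158 FPKM in wild-type and 238 FPKM in knockout cells. That is 50.2% above its wild-type level, with a log2 ratio of 0.58 and an interval of 0.53 to 0.65. Of the 10998 genes, 2.72% had a higher ratio than Socs1, 2.25% a higher ratio than Cish and 2.15% a higher ratio than Socs2. Socs3 (gene ID 12702, chr11:117966079-117970336), which acts on receptors that contain gp130 and on the interleukin-23 receptor and is the feedback gene of STAT3, was listed at 93.8 FPKM in wild-type and 110.2 FPKM in knockout cells. Its difference was the smallest of the 4, 17.5% above the wild-type level, with a log2 ratio of 0.23 and an interval of 0.18 to 0.29. A higher ratio than that of Socs3 was seen in 14.2% of the 10998 genes. The intervals of Socs3 and of the other 3 inhibitors did not overlap.

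**Figure D3:**
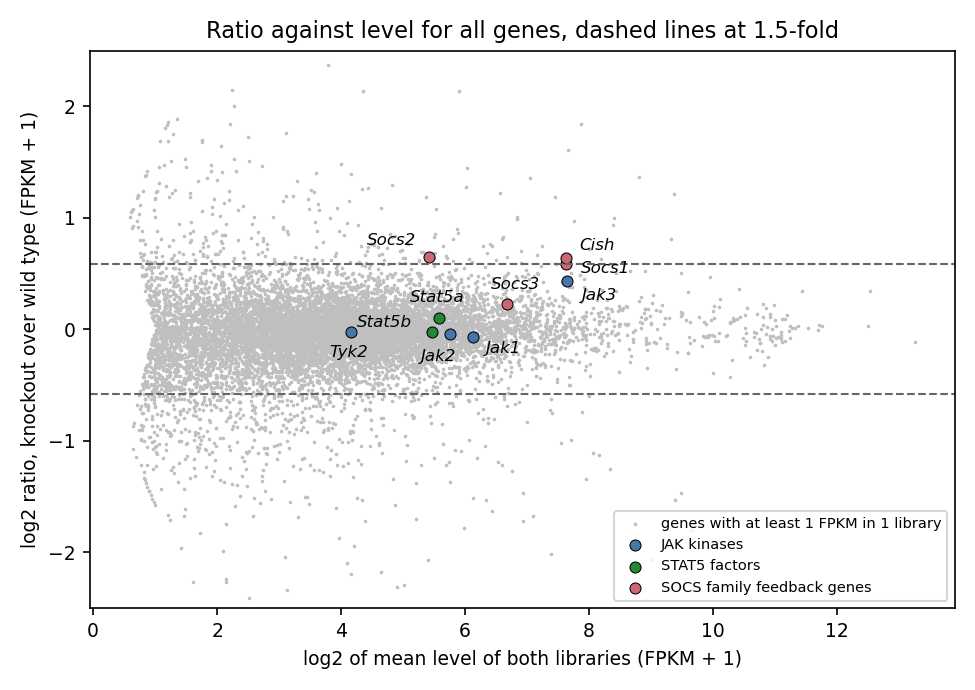
Log2 ratio of FPKM + 1 against the log2 of the mean level of both libraries for the 10998 genes with at least 1 FPKM in 1 library (grey) and the 10 genes (coloured, named), with dashed lines at 1.5-fold. 27 genes lie outside the axis limit of 2.5. The 10 genes lie at levels where most genes are within 1.5-fold, and Socs1, Socs2 and Cish lie at the upper edge of that band.

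The sequences before the start sites of Socs1 and Socs3 are shown because these are the only members whose promoter window held one of the motifs searched. Windows of 250 bases before each RefSeq start (GRCm38.p6) were held for 9 of the 10 genes, all but Socs2, with 11 starts in all. Each was searched on both strands for TTCNNNGAA, the palindrome bound by STAT proteins, for its wider form TTCNNNNGAA, and for GAAANNGAAA, the form bound by interferon regulatory factors. The last was added after the Socs1 sequence had been seen. Exon bases were left out of what is printed, and capitals mark the motif.
Socs1 (chr16:10785537-10785786, minus strand, GRCm38.p6): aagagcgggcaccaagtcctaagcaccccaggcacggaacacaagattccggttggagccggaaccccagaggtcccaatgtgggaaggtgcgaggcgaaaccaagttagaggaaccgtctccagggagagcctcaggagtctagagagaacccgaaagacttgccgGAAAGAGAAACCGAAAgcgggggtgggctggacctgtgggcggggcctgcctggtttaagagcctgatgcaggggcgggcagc
Socs3 (chr11:117969452-117969616, minus strand, GRCm38.p6): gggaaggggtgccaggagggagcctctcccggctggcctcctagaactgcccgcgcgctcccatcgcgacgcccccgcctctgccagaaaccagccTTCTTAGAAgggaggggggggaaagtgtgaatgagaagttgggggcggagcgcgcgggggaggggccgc

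The Socs3 window held 1 match of TTCNNNGAA, the letters TTCTTAGAA, from 154 to 146 bases before the start. Socs3 was the only one of the 9 genes with this motif, and 7.02% of the 32851 windows in the RefSeq table hold it, or 6.17% of 11316 windows of genes with at least 1 FPKM. The Socs3 start used here lies inside the span listed above for the gene, and 77 of the 250 window bases are exon bases. The windows of Stat5a and Stat5b also lie inside the listed spans. For these genes the bases before the outermost start were therefore not searched. The windows of Jak1 and Tyk2 lie partly inside the listed spans, so only part of each comes before the outermost start. TTCNNNNGAA was in 0 of the 11 windows, against 5.85% of all windows. The Socs1 window held 2 overlapping matches of GAAANNGAAA, GAAAGAGAAA from 83 to 74 and GAAACCGAAA from 77 to 68 bases before the start. Of all windows, 2.98% hold at least 1 such match and 0.180% at least 2. Since this motif was added after the Socs1 sequence had been seen, these shares do not measure how unusual its matches are. The Cish window held none of the 3 motifs. All 250 bases of that window lie in GENCODE exons of Cish, so no sequence outside its exons was searched. These matches describe letters in a short window, and no binding was measured.

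As a group, the 4 inhibitors summed to 439 FPKM in wild-type and 641 FPKM in knockout cells, 1.46-fold higher, with a median log2 ratio of 0.61. All 4 were above 0 with each pseudocount and scaling tried. Within the group the shares of Socs1 (36.0% in the wild type and 37.1% in the knockout), Cish (35.3% and 37.7%) and Socs2 (7.37% and 8.02%) were close, and the share of Socs3 was 21.3% in the wild type and 17.2% in the knockout. Per FPKM of Socs3 there were 1.65 FPKM of Cish in the wild type and 2.19 in the knockout. Set beside the summed level of the kinases, Jak3 included, the inhibitors stood at 1.41 FPKM per FPKM of kinase in the wild type and 1.75 in the knockout. Per FPKM of Stat5a and Stat5b together they stood at 4.94 and 6.995.

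**Figure D4:**
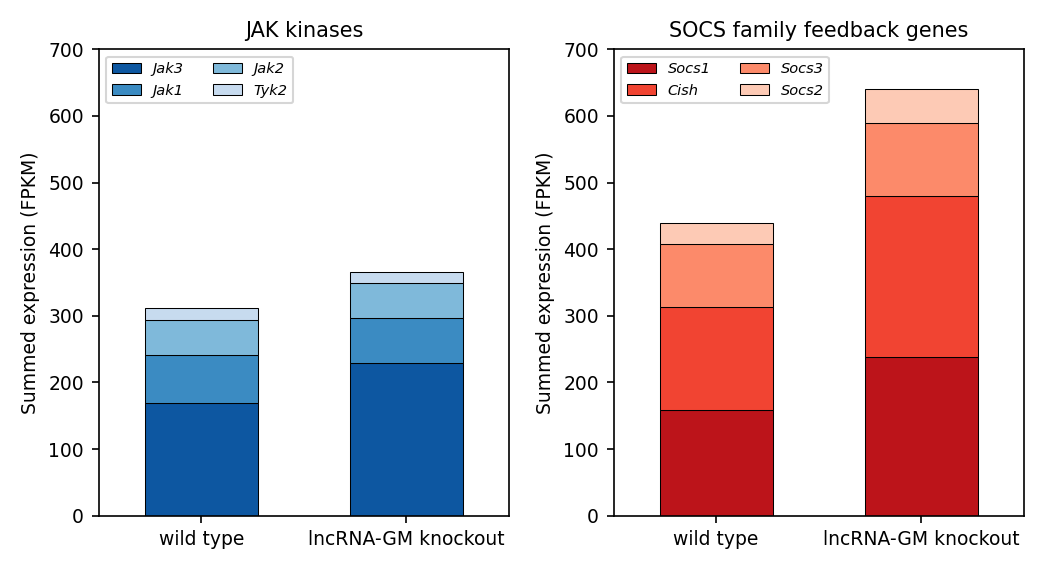
Summed FPKM of the 4 kinases (left) and of the 4 inhibitors (right), with 1 stacked bar per library starting at 0 and segments for the single genes. The kinase sum is 311 and 366 FPKM, with a taller Jak3 segment in the knockout, and the inhibitor sum is 439 and 641 FPKM.

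The order of the 10 levels differed between the libraries at the top and in the lower part. In the wild type, Jak3 was highest, then Socs1, Cish, Socs3, Jak1, Jak2, Stat5a, Stat5b, Socs2 and Tyk2. In the knockout, Cish and Socs1 stood above Jak3, and Socs2 stood above Stat5a and Stat5b. The counting intervals of neighbours overlapped for Socs1 with Cish and for Stat5a with Stat5b in the wild type. In the knockout they overlapped for Cish with Socs1, Socs1 with Jak3, Jak2 with Socs2 and Socs2 with Stat5a. The intervals of the other neighbours did not overlap. An overlap does not show that such neighbours were at the same level, and their difference was not tested. The order also rests on the transcript lengths that the authors used, which for Socs1 came out at 1247 bases from the reconstructed reads, against 2908 bases for its GENCODE transcript.

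The receptor chains that feed Jak1, Jak3 and STAT5 showed few differences of that size. Of 7 measured chains of the common gamma chain receptors, 0 were higher and 1 was lower, with a median log2 ratio of 0.03. The 3 interleukin-2 receptor chains, which were chosen for naming after their values were seen, were Il2ra at 739 and 783 FPKM, Il2rb at 353 and 360 FPKM and Il2rg at 463 and 527 FPKM in the wild type and the knockout. Their log2 ratios were 0.08, 0.03 and 0.19. The chain that was lower was Il7r, the interleukin-7 receptor, at 106 FPKM in wild-type and 58.7 FPKM in knockout cells, a log2 ratio of -0.84. Of 14 measured chains that use Jak1, Jak2 or Tyk2, 2 were higher and 2 were lower. Il10ra (log2 ratio 0.92) and Il27ra (0.64) were higher, and Il23r (-1.50) and Il12rb2 (-0.99) were lower. Il23r and Il12rb2 are chains of the interleukin-23 and interleukin-12 receptors, which use Jak2 and Tyk2. Il12rb1, also in that list, was at 103 FPKM in wild-type and 108 FPKM in knockout cells, a log2 ratio of 0.06.

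Of 11 measured cytokines that signal through these kinases, 3 were higher and 1 was lower. Il21, itself a common gamma chain cytokine, was listed at 39.9 FPKM in wild-type and 75.5 FPKM in knockout cells, and Il13 at 1.68 and 6.19 FPKM. For Il4 the table lists 0 in wild-type cells and 1.59 FPKM in knockout cells, so it counted as measured only through the knockout. Reconstructed reads were few, at 39 and 141 for Il13 and 0 and 18 for Il4. Ifng, which signals through Jak1 and Jak2, was listed at 26.8 and 5.51 FPKM, a log2 ratio of -2.10. Il2, the main STAT5-activating cytokine that T cells make, was below 1 FPKM in both libraries, at 0.060 and 0.56.

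Stat3, the STAT that drives Th17 differentiation, had a log2 ratio of -0.15. The other SOCS genes, Socs4 to Socs7, were all within 1.5-fold, with a median of -0.06, and the most abundant were Socs4 at 8.97 and 8.05 FPKM and Socs7 at 7.43 and 7.35 FPKM. Of 13 phosphatases, PIAS proteins, ubiquitin ligases and adaptors that restrain the pathway, 1 was lower and 12 were within 1.5-fold. The lower one was Usp18, an interferon-induced protease that blocks the type I interferon receptor, at 6.67 and 2.55 FPKM. In the KEGG Jak-STAT pathway of the deposited annotation, a list chosen after values had been seen, 90 measured genes lay outside the 10 genes, of which 7 were higher, 8 lower and 75 within 1.5-fold, with a median of 0.04.

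Genes known to be induced through STAT5 in T cells, other than the 10 genes, were mixed. Of 22, 5 were higher, 3 lower and 14 within 1.5-fold, with 19 above 0 and a median log2 ratio of 0.12. Higher were Lta (log2 ratio 1.61), Foxp3 (1.23), the regulatory T cell factor, and Tnfrsf4 (0.94), the receptor OX40, and lower were the cytotoxic genes Prf1 (-1.72) and Gzmb (-1.53) and the factor Prdm1 (-0.72). The list shares 4 genes with the markers of regulatory T cells, 3 of them among the 5 higher genes, and of the remaining 18 genes 2 were higher and 3 lower. Genes known to be repressed through STAT5 numbered 7, of which 4 were lower and 0 higher, with a median of -0.84. They were Il17f (-1.47) and Il17a (-1.13), the cytokines of the Th17 lineage, Bcl6 (-0.88) and Il7r (-0.84). Of 15 STAT3-induced genes, 6 were lower and 1 higher, and they include the same Il17f and Il17a. With a pseudocount of 5 the median of the STAT5-repressed genes was -0.39.

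**Figure D5:**
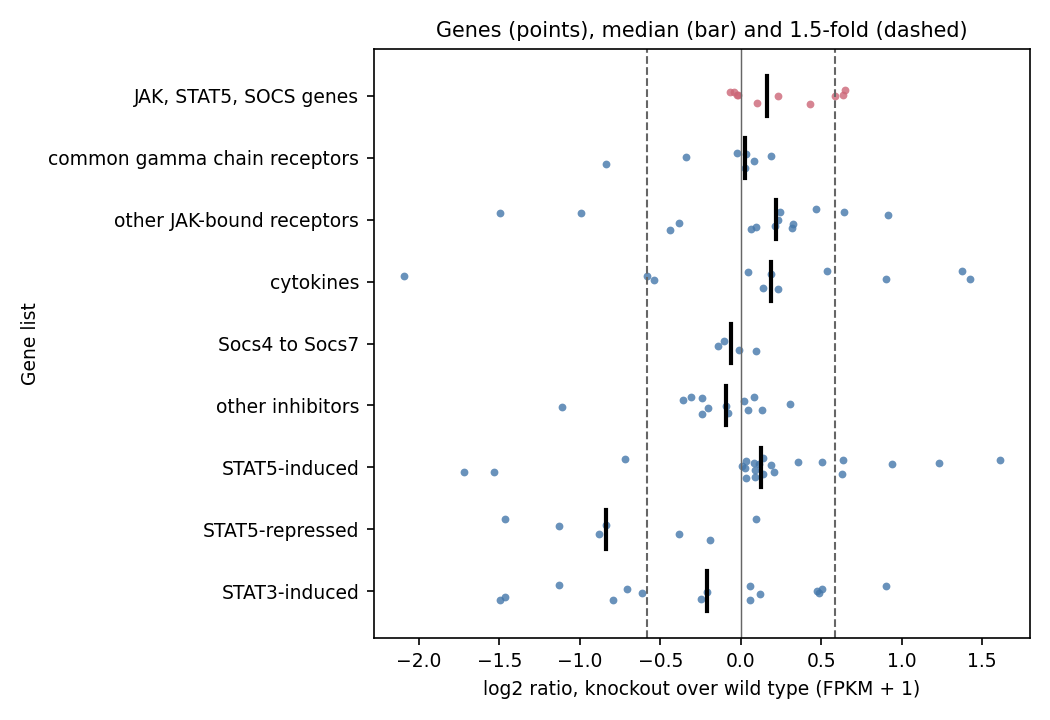
Log2 ratio of each measured gene of the pathway lists, with 1 row per list, 1 point per gene, a bar at the list's median and lines at 0 and at 1.5-fold. The 10 genes (top row) lie from -0.07 to 0.65, the receptor, cytokine and STAT5-induced lists lie on both sides of 0, and the median of the STAT5-repressed genes is -0.84.

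Markers of other cells also differed between the libraries. Of 8 markers for natural killer cells and CD8 T cells, 6 were measured and all 6 were lower. Their list summed to 549 FPKM (wild type) and 258 FPKM (knockout), with Klrk1 at 28.5 and 5.44 FPKM. Cd8b1 had the highest level of these markers, at 212 and 126 FPKM, beside Cd4 at 174 and 213 FPKM. Cd8a was listed at 98.1 and 55.7 FPKM. Of 9 measured of 10 regulatory T cell markers, 6 were higher and 0 lower, with sums of 1541 and 1789 FPKM, and Foxp3 was listed at 6.08 and 15.6 FPKM. Of 6 measured of 10 markers of macrophages and dendritic cells, 5 were higher, with sums of 38.7 and 82.3 FPKM and Cd74 at 15.4 and 39.4 FPKM; with a pseudocount of 5, 2 were past 1.5-fold. Of 3 measured of 6 B cell markers, 1 was higher, with sums of 5.38 and 8.81 FPKM. No marker of these lists was at 0 in either library. The higher macrophage and dendritic cell markers were Cd74, H2-Ab1, H2-Aa, H2-Eb1 and Lyz2. The others of that list below 1 FPKM in both libraries were Itgam (0.85 and 0.82), Itgax (0.83 and 0.91), Csf1r (0.090 and 0.26) and Adgre1 (0.060 and 0.080 FPKM). The part of all these other cells in the differences of Jak3 and the inhibitors was not tested. In bulk RNA, fewer cells of a type and less RNA per cell cannot be told apart. The 12 reference genes were all within 1.5-fold, with a median of 0.08, from -0.20 for Hprt to 0.34 for Actb.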

How the data were processed

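RNA of 2 Th17 cultures, 1 per genotype, was sequenced. The submitters' processing notes name the tools Bowtie2 and RSEM and the build GRCm38.p6. Per the file headers, the authors deposited expression, a log2 ratio, a p-value and an FDR per gene. The expression was read as FPKM from the deposited values (sums of 517664 and 514343). The deposited log2 ratio was recomputed within 0.001, with 0 set to 0.01. The deposited FDR, used as a score only to be described, exceeded 1 for 443 genes.

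The ratio, the 1.5-fold limit and the counts were computed over 10998 genes. Reads were obtained by solving the authors' deposited p-value as a Poisson comparison (6697 genes; 29 of 29 genes at 0 in 1 library gave whole reads within 0.05) and otherwise from transcript length, within 2-fold of the solved reads for 91.2%. Reads of Jak2, Tyk2 and Stat5b came from length. Since molecular identifiers are not mentioned, reads may not be independent molecules. The steps were run on simulated data with p-values made by the same Poisson formula. Such data cannot show whether the deposited p-values follow that formula.

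The 10 genes and the lists were chosen with earlier results of these data known. From a list, the 3 highest and 3 lowest genes at most, all past 1.5-fold, were to be named, or else its 2 most abundant; others named were chosen after their values were seen. Some genes and lists are not reported here. Transcripts came from GENCODE M21, promoters and coordinates from RefSeq (GRCm38.p6), and copies from BLAST 2.17.0. Scripts ran in Python 3.11.15 with scipy 1.17.1, pandas 2.3.3, numpy 2.4.6 and, for figures, matplotlib 3.10.9. Alternatives were pseudocounts of 0.1 and 5, scaling to the same median, upper quartile or sum, reconstructed reads and the authors' deposited log2 ratio.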

Additional observations from a re-analysis of the deposited data

How the results depend on the processing

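With 1 library per genotype, no spread between cultures is known, and leaving out a library leaves no comparison. No paired analysis was possible because each genotype had 1 library and no result came from a test. Over the 7 alternatives, the log2 ratio ranged from 0.59 to 0.70 for Socs2, 0.62 to 0.69 for Cish, 0.57 to 0.64 for Socs1, 0.42 to 0.48 for Jak3 and 0.22 to 0.28 for Socs3, and 0 of the 10 genes were lower past 1.5-fold. Higher genes numbered 3 in 6 of the 7 alternatives and 2 with a pseudocount of 5. With a limit of 2-fold 0 genes were higher, with 1.2-fold 4 were, and the mean of the 10 log2 ratios was 0.25 against the median of 0.16. Other values, for single genes, lists and sums, stayed close to their main value in 660 cases and moved in 54, and 0 values past 1.5-fold changed sign. Among values near 0, Jak2 (0.01), Tyk2 (0.03), Stat5b (0.03), Socs7 (0.03) and Rplp0 (0.04) turned from below to above 0 with both libraries scaled to the same median, and Rplp0 also with the same upper quartile (0.01) or the same sum (0.0019). Counting intervals show what depth allows: for Tyk2 the log2 ratio could lie from -0.13 to 0.08.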
